A study of Mus musculus with 24 samples.

Results

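Gene expression in the hippocampus was compared between high and low freezing mice on 12 of the 24 arrays of the series. The arrays were taken by region and freezing label alone, 6 from animals labelled high freezing (numbered 7 to 12) and 6 from animals labelled low freezing (numbered 1 to 6). All mice came from a selection experiment on contextual fear conditioning whose animals derive from crossing C57BL/6J with A/J, a pair of inbred lines. Total RNA of the brain region was hybridised to Affymetrix mouse arrays with 45037 probe sets other than controls. The other 12 arrays hold the amygdala, again with 6 for each freezing label, and serve here only as the comparison region. The labels give no age, sex, generation of selection or time after training, and they do not say whether an array holds 1 animal or a pool. They also do not say whether hippocampus and amygdala arrays came from the same animals, or whether the 6 arrays of a group came from separate animals. P-values therefore measure the spread between these arrays, which may be technical in part.

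In contextual fear conditioning a mouse receives a shock in a chamber and later freezes when returned there. Freezing, the absence of all movement but breathing, is the usual measure of that memory. The hippocampus holds the memory of the place, with dentate granule cells and the CA3 and CA1 pyramidal neurons in series. Excitatory transmission, activity-induced transcription and the surrounding glia all take part in how such memories are laid down.

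The 12 arrays carried the marker genes of hippocampal tissue. All 10 measured dentate granule cell markers, all 7 of CA1 and all 10 of CA2 and CA3 had means of 50 units or more, and the median gene of each list stood at 307, 531 and 248 units. The 5 measured blood cell markers were all under 50 units, and their summed level lay between 69.1 and 134 units on every array. With the dimmest 40% of probe sets left out, arrays correlated with r from 0.974 to 0.983 within a freezing group and from 0.969 to 0.981 between the groups (across probe sets, themselves not independent). High freezing arrays 7, 8 and 9 had a mean r of 0.9787, 0.9791 and 0.9777 with their own group. With the low group it was higher, at 0.9789, 0.9801 and 0.9780, while every other array correlated better with its own group. On the first principal component of the same probe sets, with 15.9% of the variance, all 6 low freezing arrays lay between -27.2 and -5.84 and all 6 high freezing arrays between 2.35 and 27.1. Median intensity was 39.8 ± 1.65 units on high freezing arrays against 37.7 ± 0.749 on low freezing ones (SD, n = 6 each; exact permutation p = 0.026, two-sided, adjusted p = 0.104 over 4 measures). The ratio of the 3' to the 5' control probe set for Gapdh, a measure of RNA integrity, was 0.792 ± 0.0447 against 0.836 ± 0.0338 (exact permutation p = 0.0887, n = 6 each). The part of these array differences in the results below was not tested.

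Few transcripts separated the groups clearly. The lower signal of Mef2c and Gfap in high freezing hippocampus passed the test, and no named gene passed it in the other direction. In limma with Benjamini-Hochberg adjustment over all probe sets, 4 of 45037 passed 0.05, or 0.00888%. Of these, 3 were lower in high freezing (0.00666%) and 1 was higher (0.00222%). The higher one has no gene symbol and is dim, with 15.2 ± 4.28 units in high against 1.61 ± 0.397 in low freezing (SD, n = 6 each). At an adjusted p under 0.1 there were 47, of which 25 were higher. Without adjustment 4499 probe sets, 9.99%, had p under 0.05, 2656 of them higher. The count depended on the settings: 22 passed when the dimmest 40% of probe sets were left out, 18 with arrays centred on their median, 29 with a robust variance prior and 2 with a prior without trend. After quantile normalization there were 3, all lower. Leaving out 1 array at a time gave between 0 and 11, with 0 without low freezing array 3 (3895 with an unadjusted p under 0.05 in limma) or high freezing array 8 (4622). Differences were small for most transcripts: of 20873 probe sets with a mean of at least 50 units in a group, 149 differed at least 1.5-fold and 20 at least 2-fold. The median 95% interval of these probe sets reached 1.15-fold to either side.

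**Figure D1:**
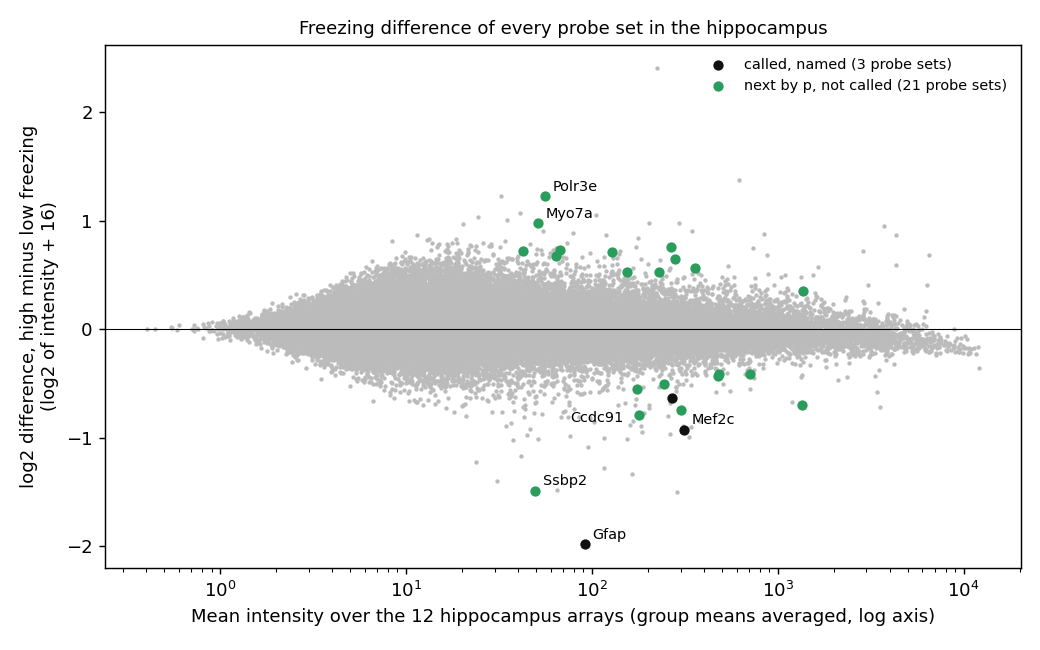
Log2 difference between high and low freezing hippocampus (vertical axis, log2 of intensity + 16) against mean intensity (horizontal log axis) for each of the 45037 probe sets, with the 3 named calls in black and the 21 named probe sets next by p in green. Gfap at -1.98 is the lowest point, and most points lie close to 0.

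Mef2c encodes a transcription factor of the MADS-box family that limits the number of excitatory synapses in neurons. It was lower in the high freezing hippocampus on 2 of its 5 probe sets by the test. On probe set 1451506_at the 6 high freezing arrays lay at 167 to 272 units with a median of 209, and the 6 low freezing arrays at 344 to 554 with a median of 403. The groups did not overlap, and the highest of the high freezing arrays stayed below the lowest of the low freezing ones. The means were 213 ± 45.5 and 416 ± 76.8 units (SD, n = 6 each), 1.90-fold lower with a 95% interval from 1.58 to 2.28 (limma, log2 difference -0.92, SE 0.13, adjusted p = 0.0166).

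The other called Mef2c probe set, 1421028_a_at, showed the same separation with a smaller step. Its high freezing arrays ranged from 178 to 237 units around a median of 207, its low freezing arrays from 285 to 386 around 328. The means of 208 ± 20.3 and 333 ± 43.2 units differ 1.55-fold (95% interval 1.37 to 1.76, limma adjusted p = 0.0166, n = 6 each). Probe sets with the suffix _a_at were designed to match several transcripts of one gene, so the 5 probe sets need not report on the same Mef2c transcripts. The brightest Mef2c probe set, 1424852_at, stood at 819 ± 39.1 units in high and 961 ± 91.4 in low freezing arrays, without overlap, but its log2 difference of -0.22 did not pass after adjustment (limma unadjusted p = 0.00192, adjusted p = 0.22, n = 6 each). Probe set 1421027_a_at had means of 694 and 828 units and a log2 difference of -0.25, also not past the threshold. The remaining one, 1451507_at, stood at 369 and 354 units with a log2 difference of 0.06. The Mef2c probe sets thus differed in size and sign, with 4 below 0 and 1 above.

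Gfap encodes the intermediate filament protein of astrocytes and is widely used to mark them. Probe set 1440142_s_at read 101 to 249 units on the low freezing arrays, with a median of 143, and 4.94 to 90.2 on the high freezing ones, with a median of 24.1. All 6 high freezing arrays were below all 6 low freezing arrays, and 5 of them lay between 4.94 and 31.6 units while array 11 stood at 90.2. The means were 31.1 ± 30.6 and 153 ± 55.4 units (SD, n = 6 each), 3.96-fold lower with a 95% interval from 2.57 to 6.08 (limma, log2 difference -1.98, SE 0.30, adjusted p = 0.0394). With signals this low the size depends on the offset added before the log: the log2 difference was -2.68 with an offset of 1 and -1.20 with 64, both outside that interval. The suffix _s_at marks probes that can match transcripts of more than one gene.

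The other Gfap probe sets had the same sign and smaller differences. The brightest, 1426508_at, had means of 269 ± 89.3 and 486 ± 101 units and a log2 difference of -0.84 (limma adjusted p = 0.0903, n = 6 each), not past the threshold. Its groups overlapped through high freezing array 11, at 432 units, and low freezing array 1, at 334. The third, 1426509_s_at, read 315 and 374 units with a log2 difference of -0.24 (limma unadjusted p = 0.0217).

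**Figure D2:**
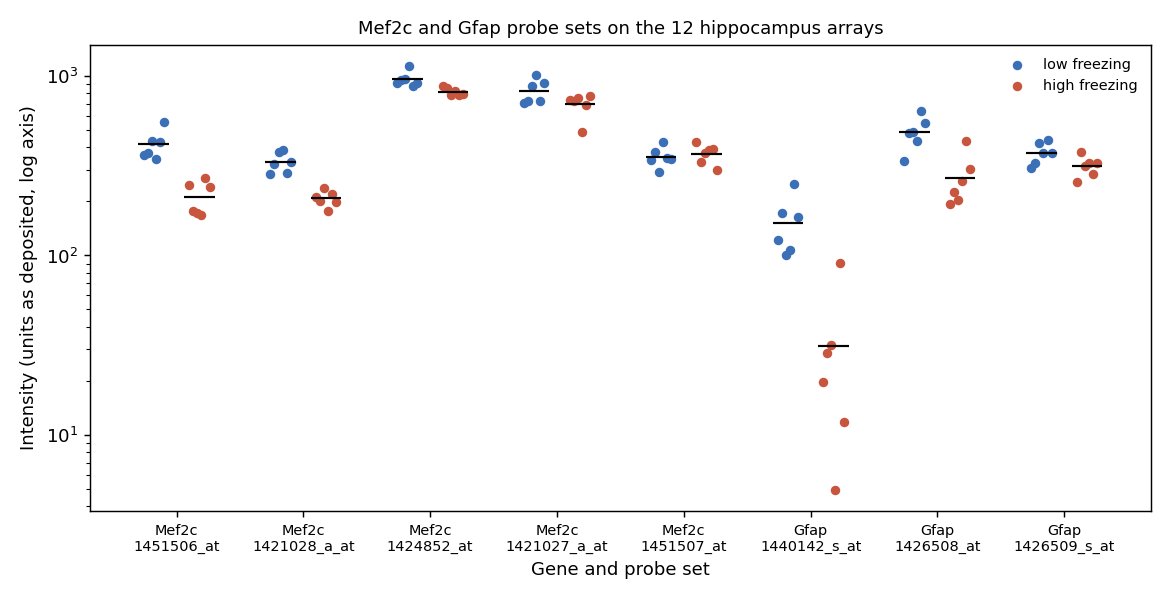
Intensity (log axis, units as deposited) of the 5 Mef2c and 3 Gfap probe sets on each of the 12 hippocampus arrays, low freezing in blue and high freezing in red, with a bar at each group mean. The groups do not overlap on Mef2c 1451506_at, 1421028_a_at and 1424852_at or on Gfap 1440142_s_at, and overlap on the other 4.

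The Mef2c calls were steadier than the Gfap call across processing choices. Each called Mef2c probe set stayed past the threshold in 17 of 22 alternatives and in 9 of the 12 that left out 1 array. Both were lost when the spread was taken from all 24 arrays (adjusted p = 0.15 for 1451506_at and 0.142 for 1421028_a_at), with a prior without trend (0.136 for each), and without low freezing array 3 (0.064 for each) or high freezing array 8 (0.0676 for each). Probe set 1451506_at was also lost without low freezing array 5 (0.0842), and 1421028_a_at without low freezing array 4 (0.0692). Over the alternatives the adjusted p ranged from 0.00547 to 0.15 for 1451506_at and from 0.00547 to 0.142 for 1421028_a_at. Gfap 1440142_s_at passed in 8 of 22, and in 2 of the 12 that left out 1 array, those without high freezing array 9 or 11. Its adjusted p was lowest, 0.00094, without high freezing array 11 and highest, 0.143, with a prior without trend. None of these alternatives turned the sign of a call. The alternative with 1 probe set per gene is not among the 22, as these probe sets are not the brightest of their genes. It called 0 genes.

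**Figure D3:**
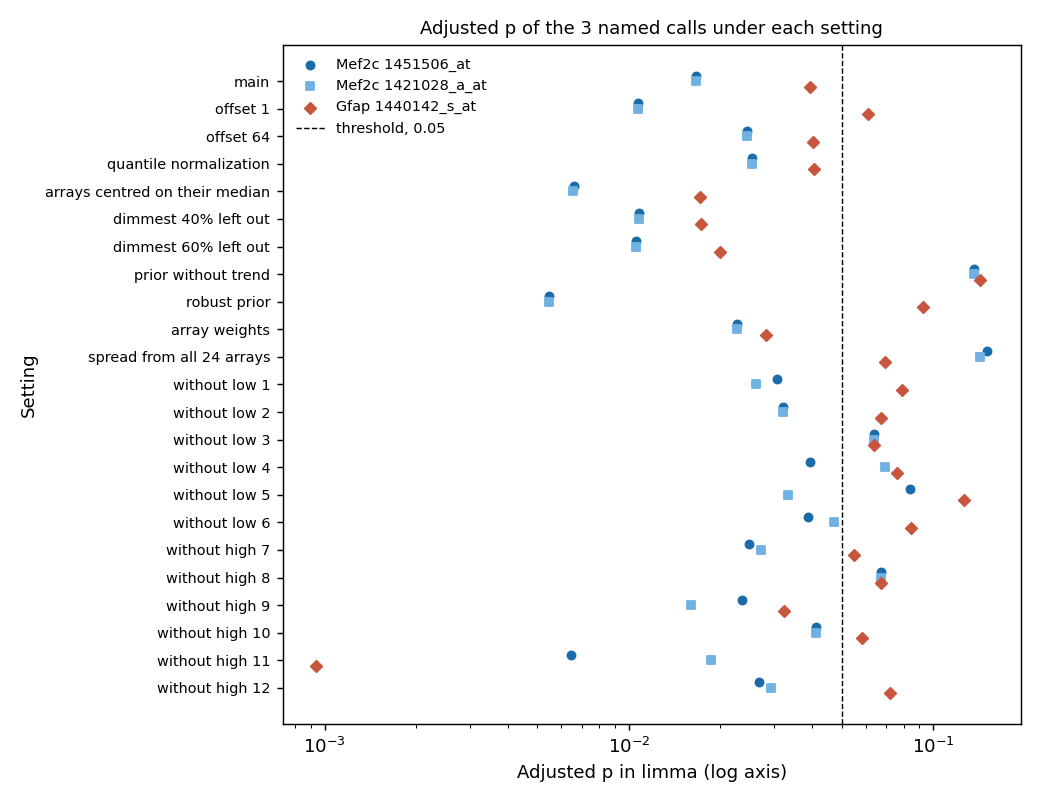
Adjusted p in limma (log axis) of the 2 called Mef2c probe sets and the called Gfap probe set under the reported settings and each of 22 alternatives, with the threshold of 0.05 as a dashed line. The Mef2c points lie left of the line in 17 alternatives each, and the Gfap points in 8.

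Sequence just upstream of the annotated starts is shown for both called genes. Mef2c has several starts, and its probe sets were not placed on them. These windows therefore do not bear on why its probe sets disagreed. Each line holds the 250 bases before a start from RefSeq, build GRCm38.p6, read 5' to 3' on the gene's strand. Capitals mark a match on either strand to TATAAA, the letters of the TATA box.
Mef2c chr13:83503784-83504033 (plus strand): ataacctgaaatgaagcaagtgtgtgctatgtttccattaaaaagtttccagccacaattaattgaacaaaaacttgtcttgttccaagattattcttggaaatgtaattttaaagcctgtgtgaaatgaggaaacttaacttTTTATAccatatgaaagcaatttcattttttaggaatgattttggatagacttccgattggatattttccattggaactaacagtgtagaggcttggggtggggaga
Mef2c chr13:83523406-83523655 (plus strand): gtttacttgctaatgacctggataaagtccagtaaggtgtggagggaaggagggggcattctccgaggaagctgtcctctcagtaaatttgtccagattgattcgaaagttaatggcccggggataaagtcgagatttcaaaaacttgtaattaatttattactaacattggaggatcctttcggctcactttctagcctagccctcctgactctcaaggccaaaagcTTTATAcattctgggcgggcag
Mef2c chr13:83573357-83573606 (plus strand): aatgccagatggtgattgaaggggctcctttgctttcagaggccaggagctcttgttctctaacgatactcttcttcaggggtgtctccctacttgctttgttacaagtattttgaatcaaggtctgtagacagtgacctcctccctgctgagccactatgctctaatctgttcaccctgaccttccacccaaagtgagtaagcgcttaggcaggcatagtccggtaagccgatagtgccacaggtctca
Gfap chr11:102897201-102897450 (minus strand): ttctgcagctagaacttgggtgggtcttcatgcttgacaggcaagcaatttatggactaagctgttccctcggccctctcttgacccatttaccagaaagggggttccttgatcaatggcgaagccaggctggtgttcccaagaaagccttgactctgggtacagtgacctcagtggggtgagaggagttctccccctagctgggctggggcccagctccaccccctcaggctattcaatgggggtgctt
A match to TATAAA was found upstream of 2 of the 3 Mef2c starts and not upstream of Gfap. Each reads TTTATA on the gene's strand, so TATAAA itself lies on the opposite strand. Counting either strand, TATAAA occurs in 12.4% of 32851 such windows. The letters CTA, any 4 bases and TAG, the core of the site bound by MEF2 factors and the same on both strands, were in none of the 4 windows and are in 3.2% of all. These matches describe the letters only, and no measurement here bears on binding.

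No other gene of the MEF2 family was called. Mef2a, a close relative of Mef2c, had a log2 difference of 0.08 on its brightest probe set (1369 against 1295 units), and Mef2d had 0.07 (1013 against 962). The Mef2a probe sets with the largest differences had 0.22 and 0.26 (limma unadjusted p = 0.0051 and 0.00691). Mef2b, dim at 20.7 against 7.59 units, had 0.61 (limma unadjusted p = 0.00658, adjusted p = 0.301). Of genes that MEF2 factors regulate in active neurons, Arc, which encodes a synaptic trafficking protein, was at -0.20 on its brightest probe set, Nr4a1, an orphan nuclear receptor, at -0.09, and the transcription factors Egr1 and Klf6 at -0.14 and -0.04. Homer1, a postsynaptic scaffold gene, was above 0 at 0.07, and another Klf6 probe set had -0.35 (limma unadjusted p = 0.002). Bdnf, the neurotrophin, was at -0.23 (370 ± 44 against 436 ± 45 units) on its brightest probe set and 0.07 on the other (limma unadjusted p = 0.0124 and adjusted p = 0.343 for the brightest, n = 6 each). None of these passed, and these genes were chosen after the calls were seen. Of glial filament and reactive astrocyte genes besides Gfap, 0 were called in limma on any probe set, and none had an unadjusted p under 0.05. On their brightest probe sets the filament genes Vim and Synm had log2 differences of 0.19 and -0.13, Serpina3n read 165 against 167 units, Cd44 48.6 against 48.8, and the dim genes Nes and Lcn2 32.0 against 25.7 and 13.6 against 11.7.

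The astrocyte list as a whole did not follow Gfap. Of 12 measured markers 6 were above 0 and 6 below, the median log2 difference was 0.01 (-0.05 with arrays centred on their median), and 0 were called in limma. At an unadjusted p under 0.05, 4 were lower and 0 higher, against 4.65% of all 18193 genes lower and 6.37% higher when each gene is represented by its brightest probe set. They were Gfap, Aldoc (5041 against 5787 units, log2 difference -0.19), S100b (612 against 702, -0.20) and Aldh1l1 (219 against 249, -0.17). The glutamate transporters Slc1a2 and Slc1a3 had -0.09 and 0.09, the water channel Aqp4 0.02 and the connexin Gja1 0.08. The summed level of the list was 22479 to 26896 units in the low and 23619 to 25247 in the high freezing arrays, so the groups overlapped. In tissue RNA, fewer cells of a type and less RNA per cell cannot be told apart.

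Most microglial markers lay slightly below 0, and none passed the test. Of 12 measured, 11 were below 0, with a median of -0.11 against 0.02 for all genes, and the count below 0 was 11 or 12 with each other offset or scaling tried. In limma 0 were called, and 2 were lower at an unadjusted p under 0.05, against 4.65% of all genes. Trem2, a lipid-sensing receptor of microglia, read 3.55 to 43.4 units on the high and 41.5 to 83.9 on the low freezing arrays (log2 difference -0.97, limma unadjusted p = 0.00101, adjusted p = 0.196, n = 6 each). C1qa, a complement subunit, read 317 ± 28.7 and 365 ± 21.4 units (log2 difference -0.20). The list's sum was 3944 to 4297 units in high and 4146 to 4670 in low freezing arrays. The part of microglial signal in other differences was not tested.

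Of 12 measured markers of endothelium and pericytes, 7 were above 0 and 5 below, with a median of 0.09. Adgrl4, an adhesion receptor of endothelial cells, was 101 ± 11.4 units in high and 62.8 ± 9.39 in low freezing arrays (n = 6 each). The groups did not overlap, with 87.6 to 114 units against 49.0 to 75.5, but limma's adjusted p was 0.0903. Pdgfrb, the pericyte growth factor receptor, read 187 and 144 units, and the other 10 measured markers of endothelium and pericytes had an unadjusted p above 0.05. Cldn5 and Pecam1, defining endothelial genes, had -0.08 and 0.17.

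All 9 measured choroid plexus and ependyma markers were above 0, with a median of 0.32 (0.68 with an offset of 1 and 0.13 with 64). Of these 1 had an unadjusted p under 0.05 in limma, against 6.37% of all genes higher. Ttr, the transthyretin gene of choroid plexus, ranged from 1776 to 11595 units in the low and from 2047 to 13062 in the high freezing arrays. That range spans both groups alike, and its log2 difference of 0.68 had an adjusted p of 0.658 in limma (unadjusted p = 0.158, n = 6 each). The list's sum ran from 1978 to 12064 units in the low and from 2364 to 13621 in the high group. The amount of choroid plexus signal thus differed several-fold between arrays of 1 group, and its part in other differences was not tested.

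The genes next in order after the calls did not pass, with adjusted p from 0.0731 to 0.0903 in limma (n = 6 each). With the dimmest 40% left out, 19 of all 24 named probe sets passed in limma. With the dimmest 60% left out, only 4 of all probe sets passed. The genes next by p were picked for a small p and at least 50 units in the higher group, which favours them under such a filter. These genes are given by role. Among RNA-handling genes, Polr3e, a subunit of RNA polymerase III, had the largest difference of those above 0. Probe set 1453147_at read 63.5 to 106 units on the high and 7.76 to 44.0 on the low freezing arrays. That is 2.34-fold with a 95% interval from 1.75 to 3.14, without overlap, while its brightest probe set had a log2 difference of 0.21. The log2 difference of 1.23 was 1.71 with an offset of 1 and 0.69 with 64, and other dim probe sets named here depend on the offset likewise.

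Ptbp2, the neuronal splicing regulator, read 220 to 341 units on the high and 155 to 205 on the low freezing arrays on 1423471_at, 1.45-fold. Its brighter probe set was at 1142 and 1120 units with a log2 difference of 0.03. Snrnp40, a protein of the U5 splicing particle, was 334 ± 27.8 against 197 ± 57.7 units, and its other probe set had the opposite sign. Pan3, a subunit of the enzyme that trims poly(A) tails, was 187 ± 26 against 124 ± 14.5 units, and its brightest probe set had -0.12. Stau2, which binds double-stranded RNA and carries messages into dendrites, lay on the other side at 607 ± 74.7 against 812 ± 75.3 units. Its low freezing arrays were at 761 to 958 units and its high freezing arrays at 525 to 714, with no overlap. Its 2 other probe sets had -0.02 and 0.08.

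Of genes for receptors and cell contacts, F2r, the thrombin receptor, was 75.9 to 100 units in high and 36.8 to 67.1 in low freezing arrays, 1.66-fold and without overlap. Its other probe set had the same sign (log2 difference 0.33, limma unadjusted p = 0.0216). Ddr1, a collagen-binding receptor kinase, was 57.1 ± 3.76 against 28.6 ± 5.59 units on the named probe set and 1278 against 922 on its brightest. The 7 other Ddr1 probe sets split, with 3 of the same sign and 4 of the opposite, of which 2 and 1 had an unadjusted p under 0.05 in limma.

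Gja1, the connexin 43 of astrocyte gap junctions, read 1367 to 1747 against 1127 to 1253 units on 1438945_x_at, 1.28-fold and without overlap. Its probe sets did not report equal differences: the brightest had 0.08 and 1438650_x_at had 0.88, at 1097 against 580 units. The suffix _x_at marks probes that resemble other sequences. Myo7a, an unconventional myosin best known from hair cells, was 73.9 ± 20.5 against 28.9 ± 6.46 units with a single probe set.

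Rgcc, a regulator of the cell cycle, gave opposite directions on its 2 probe sets. The named one read 355 to 562 units in high and 262 to 331 in low freezing arrays, 1.48-fold, and the other 190 against 247 units (log2 difference -0.35, limma unadjusted p = 0.000776). Of the remaining genes above 0, Mosmo, a modulator of Hedgehog signalling, was 164 against 92.9 units, Hdgfl3 349 against 214, and Syap1 82.9 against 45.5. For all 3 the brightest probe set had a smaller difference, from -0.10 to 0.13.

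On the lower side stood secreted, lysosomal and membrane genes. Timp2, an inhibitor of matrix metalloproteinases, read 341 to 453 units on the high and 512 to 594 on the low freezing arrays, 1.35-fold lower without overlap. All 5 of its other probe sets had the same sign, and 4 of them an unadjusted p under 0.05 in limma, the widest agreement among the 23 named genes. The remaining Timp2 probe set was very dim, at 3.09 against 3.79 units. Ctsc, the lysosomal protease cathepsin C, was 139 ± 21.8 against 211 ± 23.2 units without overlap on its brightest probe set. Its 2 other probe sets had the opposite sign but were dim, at 16.2 against 14.4 and 16.1 against 12.2 units. Nell2, a secreted glycoprotein of neurons, was 200 ± 32.4 against 288 ± 23.1 on 1423560_at and 655 against 661 on its brightest.

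Atp8a1, a phospholipid flippase, stood at 1031 ± 236 against 1674 ± 310 units on its brightest probe set, and the other 6 were between -0.23 and 0.06. Nedd4, a ubiquitin ligase, was 413 ± 56.6 against 552 ± 42.2 units, while its 2 other probe sets, both brighter, had 0.02 and -0.04. Ccdc91 was 130 ± 41 against 230 ± 28.1 units, and a further probe set had -0.47 (limma unadjusted p = 0.00127). Zc2hc1a was 224 ± 61.6 against 377 ± 49.3, with -0.58 on a probe set of the suffix _s_at and 0.08 on the brightest. Ssbp2, a cofactor of LIM-domain transcription complexes, was 19.3 ± 19.2 against 80.0 ± 34 units on a dim probe set, whose log2 difference of -1.49 was -2.23 with an offset of 1 and -0.78 with 64, and its brightest had -0.06.

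Of the 24 named probe sets, 18 did not overlap between the groups, against 0.38% of all probe sets not overlapping with high freezing above and 0.244% with it below. The rule took the smallest p-values, so that count follows from the choice. Only 7 of the 24 were the brightest probe set of their gene, and with 1 brightest probe set per gene limma called 0 of 18193 genes (2048 with an unadjusted p under 0.05).

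The largest fold differences mostly came with a wide spread within groups. Of 20 probe sets with at least 50 units in a group and at least 2-fold difference, 4 did not overlap and 1, Gfap, was called. The following were chosen after their values were seen. Tmem87a, a membrane protein gene, was at 176 to 448 units on the 6 high freezing arrays. On the low freezing arrays it read 1.95, 4.15 and 4.89 units on arrays 1, 4 and 5, and 140, 239 and 240 on arrays 6, 3 and 2. The low freezing arrays thus split into 3 with almost no signal and 3 that came near or within the range of the high group, and the log2 difference of 2.40 had an adjusted p of 0.192 in limma (n = 6 each).

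Rpgrip1, a ciliary gene known from photoreceptors, spread as widely within the low group, from 38.1 to 967 units, against 442 to 1063 in the high group (log2 difference 1.37, limma adjusted p = 0.341, n = 6 each). Ang, the ribonuclease angiogenin, did not overlap, at 39.4 to 65.6 against 1.58 to 30.1 units, nor did Bloc1s6, a subunit of an organelle-trafficking complex, at 43.0 to 84.1 against 8.14 to 34.2. Limma's adjusted p was 0.0903 for both. All 20 probe sets had the same sign in the amygdala, but the share of all probe sets that do so was not worked out.

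Genes next to the called ones along the chromosome were not called. The 3 measured genes on either side of Mef2c on chromosome 13 had log2 differences from -0.14 to 0.52, and the nearest, Cetn3 and C130071C03Rik, 0.01 and 0.05. Around Gfap on chromosome 11 they ran from -0.15 to 0.30. Near Ccdc91 on chromosome 6, but not adjacent to it, Klhl42 read 58.1 ± 19.5 against 112 ± 28.2 units (log2 difference -0.81, limma unadjusted p = 0.000346, adjusted p = 0.161, n = 6 each). The adjacent measured genes, E330012B07Rik and Far2, had -0.06 and 0.10. On chromosome 7 the named genes Polr3e and Mosmo lie 3 steps apart in the order of measured genes. Whether they differ independently was not tested. By chromosome, 84 of 18030 genes placed on one, 0.466%, had an unadjusted p under 0.001. Chromosome 14 held 10 of its 641 genes (1.56%) and chromosome 7 held 13 of 1413 (0.92%), while chromosome 19 held 0 of 609. The 10 on chromosome 14, 8 of them above 0, include Rgcc, Ang and Egr3 as well as Lmo7 (565 against 462 units) and Sugt1 (451 against 539), and none was called.

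Hippocampal neuron markers showed no shared direction. Of the 10 dentate markers 4 were above 0. At an unadjusted p under 0.05 in limma 3 were higher and 3 lower, against 6.37% of all genes higher and 4.65% lower. Among them were Npnt (179 against 146 units) and Tdo2 (133 against 103) above. Calb1 (1737 against 1949) and Prox1, the granule cell transcription factor (134 against 152), were below. Of 7 CA1 markers 2 were above 0, and none had an unadjusted p under 0.05. In the CA2 and CA3 list 5 of 10 genes were above 0, up to 0.48 for Iyd. At an unadjusted p under 0.05 in limma 1 was higher and 3 were lower. Pcp4, a calmodulin regulator that marks CA2, had the smallest p of this list. It read 1479 to 1905 units in high and 1851 to 2309 in low freezing arrays (log2 difference -0.34, limma adjusted p = 0.0961, n = 6 each). Nnat, an imprinted membrane protein gene, followed at 1823 ± 234 against 2299 ± 397 units. Other CA2 genes differed in sign: Amigo2 had -0.25 (84.7 against 105 units), Rgs14 -0.03 and Necab2 0.14.

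Excitatory neuron markers were above 0 in 6 of 8 cases with a median of 0.12. Neurod6, a transcription factor of forebrain pyramidal neurons, was 1426 ± 96.3 against 1216 ± 155 units, and Nrgn, a postsynaptic calmodulin-binding protein, was on the other side at 1620 ± 230 against 1963 ± 218. Inhibitory neuron markers split 6 and 6, with Gad1 at 2999 against 2737 units and Sst at 1805 against 2003. Oligodendrocyte markers had a median of -0.05, which was 0.01 after quantile normalization, and none with an unadjusted p under 0.05. In limma 0 of these neuronal and oligodendrocyte genes were called.

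**Figure D4:**
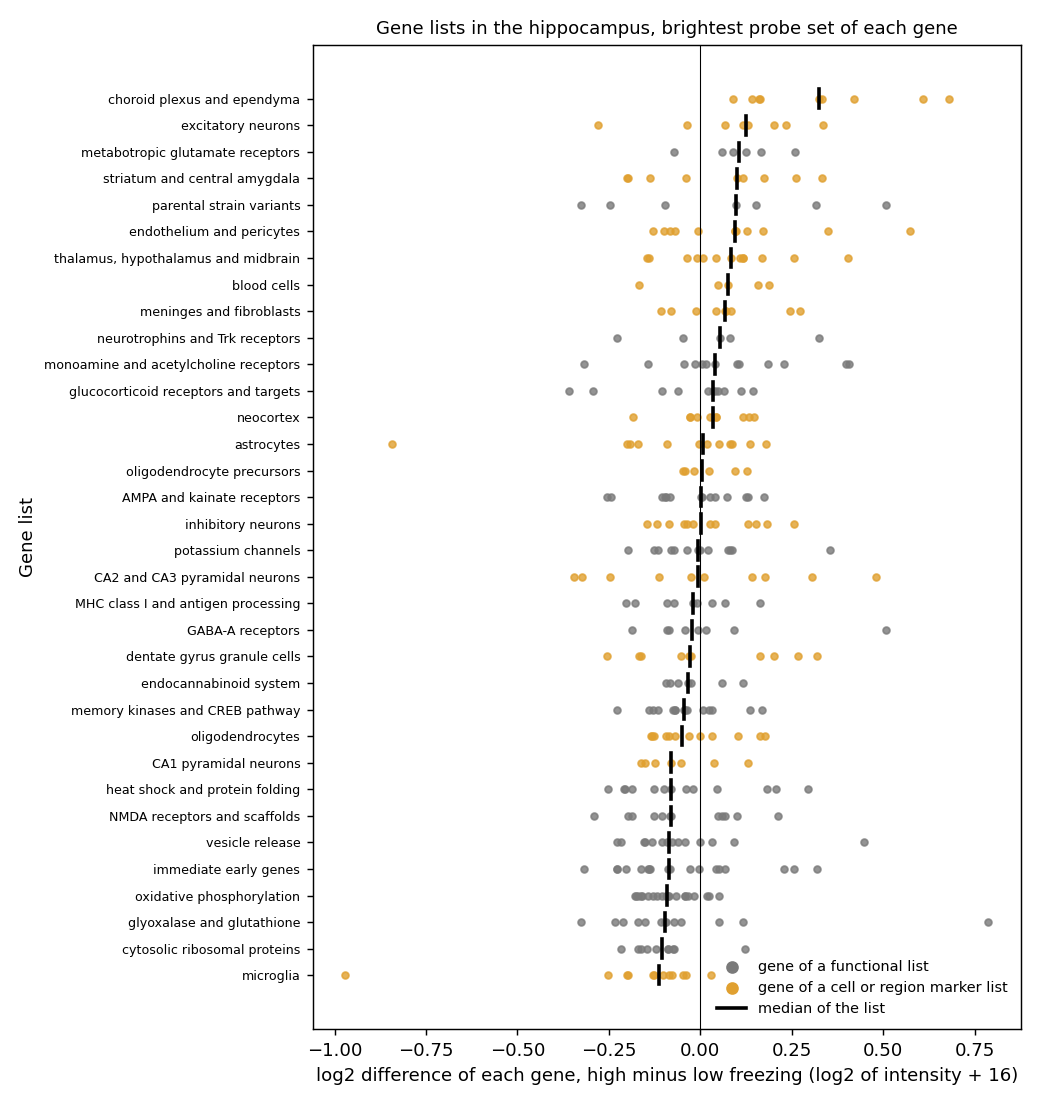
Log2 difference between high and low freezing hippocampus (horizontal axis, log2 of intensity + 16) of the brightest probe set of each gene in 34 lists, with a bar at each list's median. Choroid plexus and ependyma lie highest with a median of 0.32, and microglia lowest with -0.11, with Gfap and Trem2 as the far points of their lists.

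Genes switched on by neuronal activity were, as a list, slightly below 0, with 6 of 18 above and a median of -0.09. Egr3, a zinc-finger transcription factor of this group, had the smallest p of the list. It read 1090 to 1308 units in high and 872 to 1075 in low freezing arrays with no overlap, a log2 difference of 0.26 (limma unadjusted p = 0.000907, adjusted p = 0.193, n = 6 each). Its relatives Egr1 and Egr2 had -0.14 and -0.08, and Egr4 had 0.32 at a lower signal (73.2 against 60.1 units, limma adjusted p = 0.721). Fos, the standard activity marker, ranged from 152 to 432 units in high and 114 to 535 in low freezing arrays, so its values overlapped fully.

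Of the transmitter receptor genes 0 were called in limma. Gabra2, a GABA-A receptor subunit, was 1032 ± 147 against 734 ± 177 units (log2 difference 0.51, limma unadjusted p = 0.00224, adjusted p = 0.228, n = 6 each), and the other 7 measured subunits lay between -0.19 and 0.09. The serotonin receptors Htr5a (73.4 against 52.6 units) and Htr2c (444 against 379) and the nicotinic subunit Chrna4 (67.9 against 47.4) each had an unadjusted p under 0.05. Of 13 measured monoamine and acetylcholine receptors no other did. Of 12 NMDA receptor and scaffold genes 1 did, Dlg4, the scaffold PSD-95, at 751 ± 81.5 against 861 ± 60.2 units. Over all genes, 6.37% were higher and 4.65% lower at that threshold in limma. Of 14 AMPA and kainate genes, Gria3 was at 1125 against 993 units and the auxiliary subunit Cnih3 at 151 against 183. Of 6 metabotropic glutamate receptors 5 were above 0, with a median of 0.11, and none had an unadjusted p under 0.05.

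In the vesicle release list 11 of 14 genes were below 0, with a median of -0.08 that was -0.02 after quantile normalization. Stx1a, the presynaptic fusion protein syntaxin 1A, was 828 ± 56.9 against 966 ± 73.5 units (limma unadjusted p = 0.00243, adjusted p = 0.23, n = 6 each). Syt2, a calcium sensor of release, lay the other way at 57.5 against 38.6 units (log2 difference 0.45, limma unadjusted p = 0.00731, adjusted p = 0.306, n = 6 each). Among memory kinases, Camk4 was 456 against 535 units and Prkaca 1306 against 1161, and the list's median was -0.04, or 0.01 after quantile normalization.

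Metabolic lists of bright genes lay below 0 by small amounts. Oxidative phosphorylation had 18 of 21 genes below 0 and a median of -0.09. At an unadjusted p under 0.05 in limma 4 were lower, among them Sdha (2030 against 2292 units), against 4.65% of all genes. Cytosolic ribosomal proteins had 9 of 10 below 0 and a median of -0.11. After quantile normalization these medians were both -0.04 and 6 of the 21 and 2 of the 10 genes were above 0. Glyoxalase and glutathione genes had 10 of 13 below 0 and summed to 11867 to 12705 units in high and 13303 to 13924 in low freezing arrays, without overlap. That sum was singled out among those of all the lists and was not tested. The mean over all probe sets was lower as well, at 218 units on high against 222 on low freezing arrays. Gclc, which makes the glutathione precursor, was 509 ± 61.5 against 600 ± 49.5 units. Slc7a11, the cystine transporter, lay the other way at 62.0 ± 16.1 against 30.8 ± 17.2 (log2 difference 0.79, limma adjusted p = 0.21, n = 6 each). No gene of these lists was called.

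A further list held genes that carry known variants in the parental strains or their sublines. Besides Gabra2, Glo1, glyoxalase 1, read 757 to 1563 units in high and 897 to 1812 in low freezing arrays (log2 difference -0.33, limma unadjusted p = 0.072, adjusted p = 0.554, n = 6 each). Nnt, the mitochondrial transhydrogenase, was at 331 ± 72.3 against 355 ± 74.3 units. Tyr, Tyrp1, Hc and Dysf were all under 20 units in both groups on average, too dim to compare.

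Most named hippocampal differences had the same sign in the amygdala, and no test separated the regions. The interaction, the hippocampal minus the amygdalar freezing difference on all 24 arrays, gave 0 calls in limma (smallest adjusted p = 0.611, 2584 with an unadjusted p under 0.05). Gfap 1440142_s_at had a log2 difference of -1.59 in the amygdala, at 63.7 ± 72.7 against 171 ± 70.7 units (n = 6 each), and the adjusted interaction p was 0.966. Mef2c was at -0.34 and -0.25 on its called probe sets there, with an adjusted interaction p of 0.873 for each in limma. The amygdalar spread was wider for Mef2c 1451506_at, at 312 ± 158 against 377 ± 109 units.

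Of the genes next by p, 10 of 12 above 0 and 9 of 9 below 0 shared their sign with the amygdala. The share of all probe sets with the same sign in both regions was not worked out, so these counts have no baseline. Ctsc had a larger difference there, -1.17 against -0.55 in the hippocampus. Ptbp2 and F2r had the opposite sign, -0.10 and -0.03, and Gja1, Timp2 and Pan3 were closer to 0 there. The adjusted interaction p of the 24 named probe sets ran from 0.748 to 0.984 in limma. They were chosen for a small hippocampal p, which by itself favours a larger difference there, so no regional difference is read from them.

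**Figure D5:**
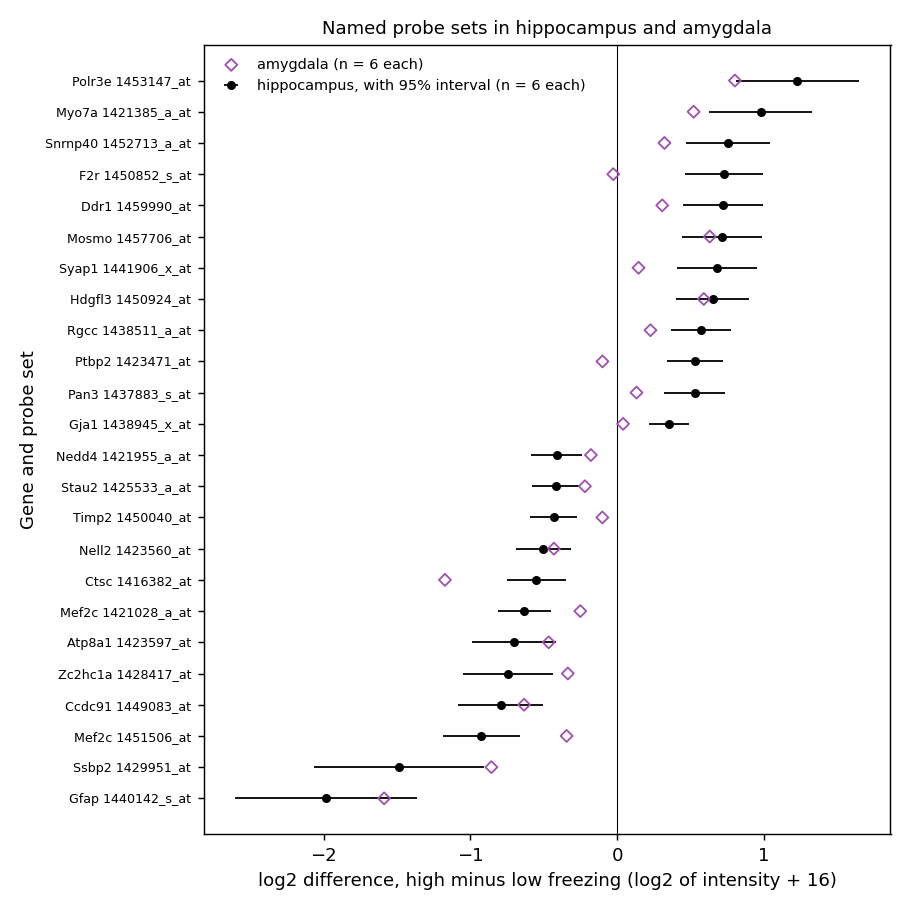
Log2 difference between high and low freezing (horizontal axis, log2 of intensity + 16) of the 24 named probe sets, in the hippocampus as black points with 95% intervals and in the amygdala as open diamonds, 6 arrays a group. The diamonds of Ptbp2 and F2r lie on the other side of 0, and that of Ctsc lies further from 0 than the hippocampal point.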

How the data were processed

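The deposited table holds linear intensity values, 1 per probe set and array, as made by the authors. Their software was not given in the sources used here. The trimmed mean was close to 149 units on each of the 12 arrays, so no further normalization was applied. Values were analysed as log2(intensity + 16), on which folds of dim probe sets are understated. The 64 control probe sets were left out. Gene symbols came from the platform annotation: 34945 probe sets carried 1 symbol, 932 several and 9160 none. Chromosomes and gene order came from RefSeq (GRCm38.p6), which held the symbols of 34741 probe sets.

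High and low freezing hippocampus were compared with limma 3.58.1 in R 4.3.3 on the 12 hippocampus arrays alone (10 residual degrees of freedom, variance prior with intensity trend, two-sided, Benjamini-Hochberg over 45037 probe sets, threshold 0.05). The interaction used all 24 arrays. Arrays have no read depth, and 6 arrays a group limit the precision. No 2 arrays were copies of each other.

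Named were all calls with 1 symbol, the next by p, 1 probe set a gene, up to a total of 12 in each direction with at least 50 units in the higher group, the 2 smallest p in each list, and the strain variant genes. Members and lists were chosen with earlier results of these data known. List medians used the brightest probe set of a gene. Alternatives were offsets of 1 and 64, quantile normalization, median centring, leaving out the dimmest 40% or 60%, other priors, array weights, the spread of all 24 arrays, 1 probe set per gene, and leaving out each array.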

Additional observations from a re-analysis of the deposited data

Results flagged for a closer look

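The check covered 56 groups of 6 arrays, those of the 24 main named probe sets (on the log2 scale) and of 4 measures of whole arrays. In 3 of these groups an array's gap to the nearest other took up more of the group's range than Dixon's 95% critical value allows. Chance alone gives such a gap in about 1 of 20 groups. For Ssbp2 1429951_at, high freezing array 12 stood at 57.7 units, with the next at 18.1, a gap of 0.681 of the range. For Stau2 1425533_a_at, low freezing array 3 stood at 958 units, with the next at 826, a gap of 0.644. For Zc2hc1a 1428417_at, low freezing array 1 stood at 281 units, with the next at 375, a gap of 0.744.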

How the results depend on the processing

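The count of called probe sets was 4 as reported and 3 or 4 with an offset of 1 or 64, quantile normalization, array weights or the dimmest 60% left out. It was 18 with arrays centred on their median (4 higher, 14 lower), 22 with the dimmest 40% left out (12 higher, 10 lower of 27023), 29 with a robust prior (19 higher, 10 lower), 2 with a prior without trend (both higher) and 0 with 1 probe set per gene. With the spread of all 24 arrays it was 6, and none of the 4 reported calls was among them. Leaving out 1 array gave 0 to 11 calls: 0 without low freezing array 3 or high freezing array 8, 1 without low freezing array 4 or 5, 7 without high freezing array 7 and 11 without high freezing array 9. Why these counts move was not tested. Of 95 named results under all settings, 2138 values in all, 3 values of 2 uncalled genes changed sign: Mbp was 0.0192 after quantile normalization (reported -0.14), and Tyrp1, reported at 0.0978, was -0.00494 without low freezing array 5, -0.011 without low freezing array 6 and at most 0.237 when 1 array was left out. None of the 24 main named probe sets changed sign. Centring on the median moved the median of all genes from 0.02 to -0.04, and the medians of the astrocyte, inhibitory neuron, neocortex, AMPA receptor, glucocorticoid and monoamine receptor lists fell to or below -0.01. Array numbers run from 1 to 12 in both regions. Same-numbered arrays showed little shared deviation (r from -0.08 to 0.09 over 12 numbers, none over 0.1, 4 best matched by their own number), and the numbers were not taken as pairs. That count of matches has no baseline here. The check cannot show whether same-numbered arrays come from the same animals. With the number as a replicate block the interaction again gave 0 calls (smallest adjusted p = 0.646 in limma, 2625 with an unadjusted p under 0.05), as it did with an offset of 64 (0.688, 2566) and quantile normalization (0.52, 2591).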
